A study of Mus musculus with 23 samples.

Results

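The genes described here flank *Nr1i2*, which codes for the pregnane X receptor (PXR), on mouse chromosome 16. They are the probes of the deposited table whose first position in the array annotation (build mm9) lies within 20 Mb of the *Nr1i2* probe, from 18248745 to 58248745. The probes of *Nr1i2* itself and of *Retnla*, *Retnlb* and *Retnlg* were left out by name. This gave 586 of the 37161 probes of the table, with 360 gene names, 398 probes before *Nr1i2* and 188 after it on the coordinates of the build. Just inside the 2 ends lay a *Trmt2a* probe and a probe with no gene symbol, with a difference between genotypes of 0.08 and 0.05 on the log2 scale. The nearest probes just outside, of *Ranbp1* and *Dcbld2*, had -0.01 and 0.03.

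Expression was measured in the ileum, the last stretch of the small intestine, of male mice, with 1 single-colour Agilent array per mouse. WT mice of the strain C57BL/6J were bought from Charles River at 6 weeks of age. *Pxr*-/- mice, which lack a working *Nr1i2* gene, had been backcrossed on C57Bl/6J and bred for 10 years in house. All mice were acclimatized for 2 weeks, and the labels give no age for the *Pxr*-/- mice. The treatment was a steroid that activates rodent PXR, pregnenolone 16α-carbonitrile (PCN), given at 100 mg/kg in corn oil by daily intraperitoneal injection for 4 days, with corn oil alone as the control (CONT). Fed mice were killed at ZT6, when 6 h had gone by from the final dose. The WT PCN group had 5 arrays and each of the other 3 groups (WT CONT, *Pxr*-/- CONT and *Pxr*-/- PCN) had 6. Every *Pxr*-/- mouse came from the in-house colony and every WT mouse from the vendor, so genotype and breeding origin cannot be told apart in any genotype comparison. The strain of the embryonic stem cells in which the gene was disrupted, the number of backcrosses and the exact deletion are not given in the sources used here.

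Genes are inherited together with their neighbours on a chromosome. When a knockout is made in stem cells of one strain and backcrossed to another, a stretch of the first strain's DNA usually stays around the disrupted gene, and genes in it can differ in expression or in probe binding between knockout and WT mice whatever the missing gene does. The comparison by distance from *Nr1i2* was made with that in mind. It cannot tell such DNA from other differences between the in-house colony and the vendor's mice. Which alleles the mice carried was not tested, since only array signals were analysed here.

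The chromosome 16 stretch holds neighbouring copies of the stefin A genes, small inhibitors of cysteine proteases. The array probes of *Csta2* (named 2010005H15Rik on the array) and *Cstdc5* (BC100530) are shown because both differed between genotypes and because they share a run of 25 bases, given in capitals. The probes of *Cstdc4* and *Stfa3*, neighbours that were not called between genotypes, share a run of 22 bases, also in capitals. Signal at these probes may include transcripts of more than 1 copy, which was not separated. Each line is a stretch of 30 bases of the 60-base probe, 5′ to 3′ as the scanner file gives it, for a probe placed at chr16:36257452-36257511 (plus strand), chr16:36359525-36359584 (minus), chr16:36188043-36188102 (plus) and chr16:36450693-36450752 (minus).
Csta2: CTTCTAAGCAGCAAATTCTAAAGTGtcctg
Cstdc5: taCTTCTAAGCAGCAAATTCTAAAGTGacc
Cstdc4: ttcatGGTTACCAGACTAACAAAACCAgga
Stfa3: GGTTACCAGACTAACAAAACCAagactgat

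The probes of noncoding transcripts that separated the genotypes on all arrays are shown whole, since their signal is that of the transcript stretch they match. They are both probes of the long noncoding RNA *Dubr* (5330426P16Rik on the array), at chr16:50719998-50720057 and chr16:50728099-50728158 (both minus), and 2 probes of long intergenic RNAs, at chr16:40284763-40284822 and chr16:40472353-40472412 (both plus).
Dubr, first probe: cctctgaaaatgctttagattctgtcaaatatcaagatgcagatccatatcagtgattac
Dubr, second probe: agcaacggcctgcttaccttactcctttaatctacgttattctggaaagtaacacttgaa
Intergenic RNA, first probe: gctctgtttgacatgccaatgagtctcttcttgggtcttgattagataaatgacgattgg
Intergenic RNA, second probe: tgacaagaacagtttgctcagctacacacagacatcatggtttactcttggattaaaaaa

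All values below are log2 signals after quantile normalization, and a difference is a difference of log2 signals, *Pxr*-/- minus WT unless stated. A probe was called when its adjusted p (limma, Benjamini-Hochberg over 37591 tested probes) was at most 0.05 and its fold change above 1.5, in a fit with the 4 groups and the 2 wash batches as terms. Precision is set by the number of arrays. The median standard error (SE) was 0.10 for a difference within 1 treatment and 0.07 for the difference averaged over CONT and PCN. The median spot signal was 74 to 106.5 per array, 60.9% to 67.3% of the probes were well above background, and all 5 ileal enterocyte markers were above background on all arrays. All 586 members passed the filter on dim probes, and 503 of them were above background on all 23 arrays. Levels of different probes are not compared, since each probe binds with its own strength. In tissue samples such as these, fewer cells of a type and less RNA per cell cannot be told apart.

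The *Nr1i2* probe itself stayed above background on all arrays. Its probe (chr16:38248745-38248804, minus strand) ranged from 11.57 to 12.53 (median 12.23) on the 11 WT arrays and from 11.38 to 12.27 (median 11.74) on the 12 *Pxr*-/- arrays. The ranges overlapped, and the averaged difference was -0.44 (SE 0.11, limma adjusted p = 0.0405), under the fold threshold. Whether the probe lies in the deleted part is not given in the sources used here, so it does not check the genotype labels.

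The share of members called between genotypes was above that of all tested probes. Without PCN, 11 of the 586 were called (1.88%), against 0.141% of all tested probes. With PCN, 16 were called (2.73%, against 0.364% of all tested). Averaged over both treatments, 19 were called (3.24%, against 0.396%), 16 lower in *Pxr*-/- mice (0.261% of all tested were lower) and 3 higher (0.136%). With each array scaled to its 75th percentile of the processed signal, that split was 20 lower and 10 higher (5.12% called, against 0.527% of all tested). Of the other 664 probes of chromosome 16, 2 were called (0.301%), and of 36332 on other chromosomes 128 (0.352%). Chromosome 16 as a whole had 21 of 1259 probes called (1.67%), and each of the other 19 chromosomes had 0% to 1.26% of its probes called. No stretch of like length on another chromosome was compared. By adjusted p alone, 50 members differed (8.53%, against 1.21% of all tested), 33 of them lower (0.745% of all tested were lower). Members made up 1.56% of the tested probes and 12.8% of those called.

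Most members were not called. The median averaged difference of the 586 was 0.00, beside 0.01 for all tested probes, and the median absolute difference was 0.08, beside 0.05 for other chromosomes. In all, 22 probes of 20 genes were called in at least 1 of the 3 genotype comparisons, 17 lower and 5 higher. Among them 9 were called both without and with PCN, that is 81.8% of those called without PCN and 56.2% of those called with PCN. For the 22 and the 9 no share over all tested probes was counted, and the shares above hold for single comparisons.

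**Figure D1:**
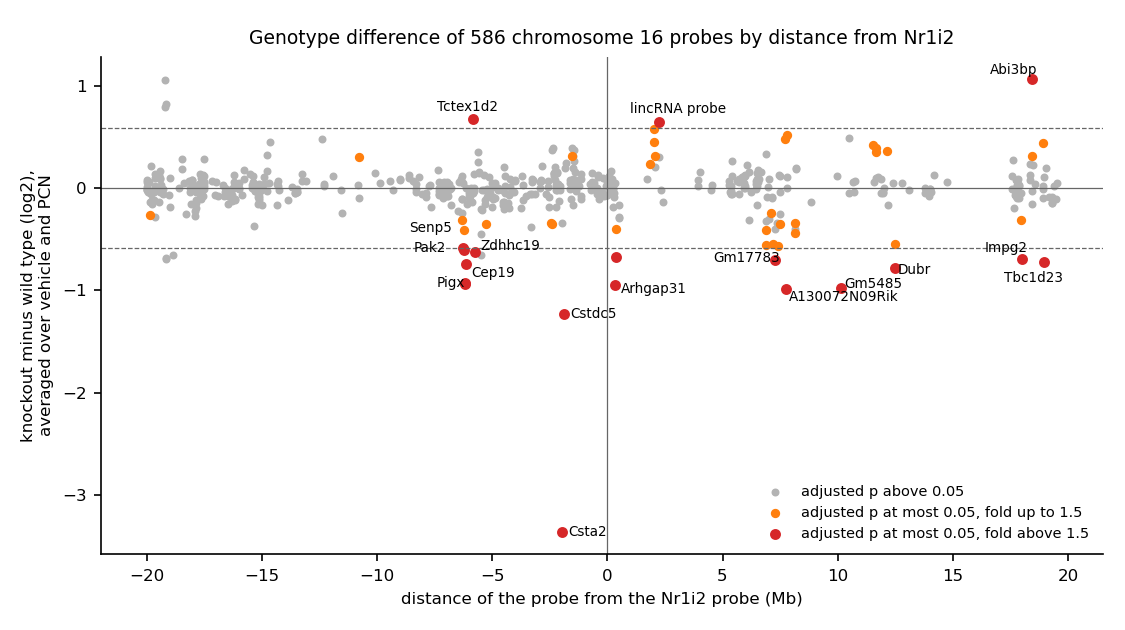
Each point is 1 of the 586 probes. The horizontal axis is its distance from the Nr1i2 probe in Mb, and the vertical axis the difference between Pxr-/- and WT arrays (log2), averaged over CONT and PCN. Dashed lines mark a fold of 1.5, and colours mark the test result. The called probes lie between -6.27 and 18.96 Mb, most of them below 0, and the largest fitted difference is that of Csta2 (-3.36), which was not well above background on 8 Pxr-/- arrays.

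Called members did not lie evenly around *Nr1i2*. Within 2 Mb, 4 of 75 probes were called (5.33%), from 2 to 5 Mb 1 of 86 (1.16%), from 5 to 10 Mb 9 of 165 (5.45%) and from 10 to 20 Mb 5 of 260 (1.92%). The far bins differed by side. From 10 to 20 Mb before *Nr1i2* 0 of 180 probes were called, and 2 passed by adjusted p alone (1.11%), whereas after it 5 of 80 were called (6.25%), and 13 passed by adjusted p alone (16.2%). With bins ending at 1, 3, 10 and 20 Mb the shares were 5%, 3.95%, 4.29% and 1.92%, so the low share from 2 to 5 Mb depends on where the bins end. These shares are descriptions, since probes of 1 gene are not independent, and the difference between bins was not tested.

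**Figure D2:**
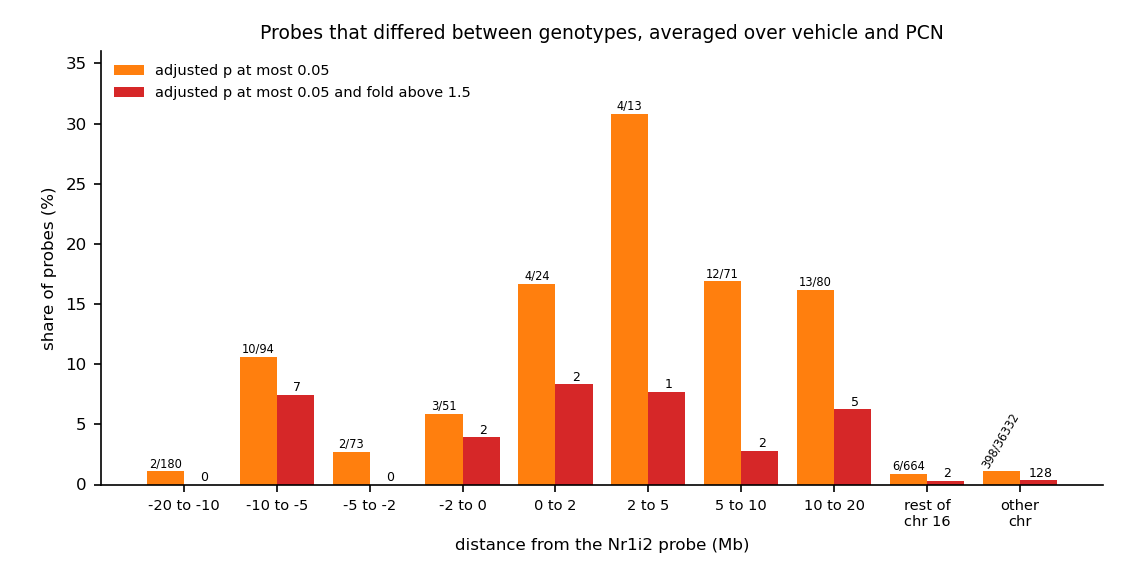
Bars give the share of probes (%) that differed between genotypes, averaged over CONT and PCN, by distance from the Nr1i2 probe in Mb, with negative values before it. Orange bars are probes with an adjusted p of at most 0.05 and red bars those also past a fold of 1.5, with their numbers above. After Nr1i2 every bin has a share above that of other chromosomes (1.1% and 0.352%), and from 10 to 20 and from 2 to 5 Mb before it no probe passes both thresholds.

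Among the nearest neighbours of *Nr1i2*, 1 gene was called. Of the 40 probes within 1 Mb, for 24 genes, 37 probes of 23 genes were not called in any genotype comparison, with averaged differences of -0.29 to 0.17 (median 0.00) and a lowest limma adjusted p of 0.161. They include *Gsk3b*, a kinase of glycogen and Wnt signalling whose probe starts 0.01 Mb away (-0.07, SE 0.06), *Cox17*, a copper chaperone of cytochrome oxidase at 0.11 Mb (-0.01, SE 0.06), and *Timmdc1*, an assembly factor of respiratory complex I at 0.25 Mb (0.00, SE 0.08). *Ndufb4*, a subunit of complex I at -0.60 Mb, had a difference of 0.05 (SE 0.04). The called gene was *Arhgap31*, which codes for a GTPase-activating protein of Cdc42 and Rac1.

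The *Arhgap31* probe at 0.35 Mb (chr16:38598803-38598862, minus strand) read 9.31, 9.84, 9.57, 9.76, 9.48 and 9.69 on the WT CONT arrays and 9.93, 9.64, 9.93, 9.75 and 10.14 on the WT PCN arrays. It read 8.63, 8.71, 8.63, 8.68, 8.68 and 8.89 on the *Pxr*-/- CONT arrays and 8.93, 8.70, 8.91, 8.93, 8.85 and 9.005 on the *Pxr*-/- PCN arrays. All *Pxr*-/- arrays lay below all WT arrays. The difference was -0.90 (SE 0.09, limma adjusted p = 8.6e-06) without PCN and -0.98 (SE 0.09, limma adjusted p = 7.76e-07) with PCN. A second probe at 0.37 Mb also separated the genotypes (WT 8.86 to 9.34, *Pxr*-/- 8.15 to 8.63), with an averaged difference of -0.68 (SE 0.05). The third probe, at 0.39 Mb, had -0.39 (SE 0.07, limma adjusted p = 0.00647) with overlapping ranges, so all 3 probes of the gene were lower in *Pxr*-/- mice.

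At -2 Mb lies the stefin A cluster, with 7 genes measured by 1 probe each. The *Csta2* probe shown above had the largest fitted difference of all members, and it did not divide the arrays by genotype alone. On the 11 WT arrays it ranged from 8.25 to 9.86 (median 9.51). On the *Pxr*-/- CONT arrays it read 5.22, 8.83, 4.66, 8.30, 5.03 and 4.75, and on the *Pxr*-/- PCN arrays 5.05, 8.68, 4.96, 4.90, 8.41 and 5.09. Of the 12 *Pxr*-/- arrays, 8 lay between 4.66 and 5.22 and 4 between 8.30 and 8.83, with a gap of 3.08 between them, and the 4 lay inside the WT range. The probe was well above background on 11 of 11 WT and 4 of 12 *Pxr*-/- arrays, 2 of 6 in each treatment. It thus passed the filter on dim probes only through the WT arrays. Since 8 readings were not well above background, the size of the fitted difference depends on the background level and is not a measured fold. The fitted averaged difference was -3.36 (SE 0.53, limma adjusted p = 0.000877), called with PCN (-3.54, SE 0.76, limma adjusted p = 0.0267) and not without (-3.19, SE 0.73, limma adjusted p = 0.0745). A mean over such *Pxr*-/- arrays stands for none of them.

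*Cstdc5*, 0.10 Mb further on, ranged from 6.06 to 7.22 (median 6.84) on WT and from 4.45 to 6.84 (median 5.66) on *Pxr*-/- arrays, with a fitted averaged difference of -1.23 (SE 0.21, limma adjusted p = 0.00242). The ranges overlapped. It was well above background on all WT arrays but on only 2 of 6 *Pxr*-/- CONT and 5 of 6 *Pxr*-/- PCN arrays, so this size too depends on the background level. The other 5 genes of the cluster were not called between genotypes. Their averaged differences were 0.02 for *Stfa2l1*, -0.02 for *Cstdc4*, -0.34 for *Stfa1*, 0.19 for *Stfa2* and 0.25 for *Stfa3*, with a lowest limma adjusted p of 0.0893.

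The other called genes on that side lay between -6.27 and -5.74 Mb. *Pigx*, a subunit of a mannosyltransferase of GPI anchor synthesis, was lower in *Pxr*-/- mice at both of its probes. The probe at chr16:32084515-32084574 (minus strand) read 10.99, 10.94, 10.90, 10.95, 10.94 and 11.06 on WT CONT arrays and 11.11, 10.91, 11.10, 11.14 and 11.02 on WT PCN arrays. It read 9.63, 10.44, 9.70, 10.61, 9.76 and 9.66 on *Pxr*-/- CONT and 10.08, 10.57, 9.94, 10.05, 10.66 and 9.83 on *Pxr*-/- PCN arrays. No *Pxr*-/- array reached the WT range, and the SD was 0.44 in *Pxr*-/- CONT (n = 6) and 0.34 in *Pxr*-/- PCN (n = 6), beside 0.06 in WT CONT (n = 6) and 0.09 in WT PCN (n = 5). The averaged difference was -0.94 (SE 0.11, limma adjusted p = 2.08e-05), and that of the other probe -0.92 (SE 0.10, limma adjusted p = 3.36e-06).

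*Cep19*, which codes for a centrosome and cilium protein, ranged from 11.52 to 11.90 on WT and from 10.61 to 11.52 on *Pxr*-/- arrays, with an averaged difference of -0.75 (SE 0.09, limma adjusted p = 2.61e-05). The highest *Pxr*-/- array lay just under the lowest WT array. *Pak2*, a kinase that acts under Cdc42 and Rac, had -0.60 (SE 0.09, limma adjusted p = 0.00046) at the called probe and -0.41 (SE 0.06, limma adjusted p = 0.00059) at the other. *Senp5*, a SUMO protease, had -0.59 (SE 0.09, limma adjusted p = 0.000557), and *Zdhhc19*, a palmitoyltransferase, -0.63 (SE 0.13, limma adjusted p = 0.0158). The genotype ranges of *Pak2* (called probe), *Senp5* and *Zdhhc19* overlapped.

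*Tctex1d2*, a dynein light chain gene, was higher in *Pxr*-/- mice. Its probe, whose annotated ends (chr16:32426977-32428870, plus strand) lie further apart than its 60 bases, ranged from 9.33 to 9.63 (median 9.48) on WT and from 9.70 to 10.42 (median 10.18) on *Pxr*-/- arrays. The ranges did not overlap, and the averaged difference was 0.68 (SE 0.07, limma adjusted p = 1.03e-06). Other genes of the same stretch, such as *Nrros* and *Pigz*, were not called between genotypes (-0.15 and -0.25 averaged, limma adjusted p = 0.614 and 0.307).

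**Figure D3:**
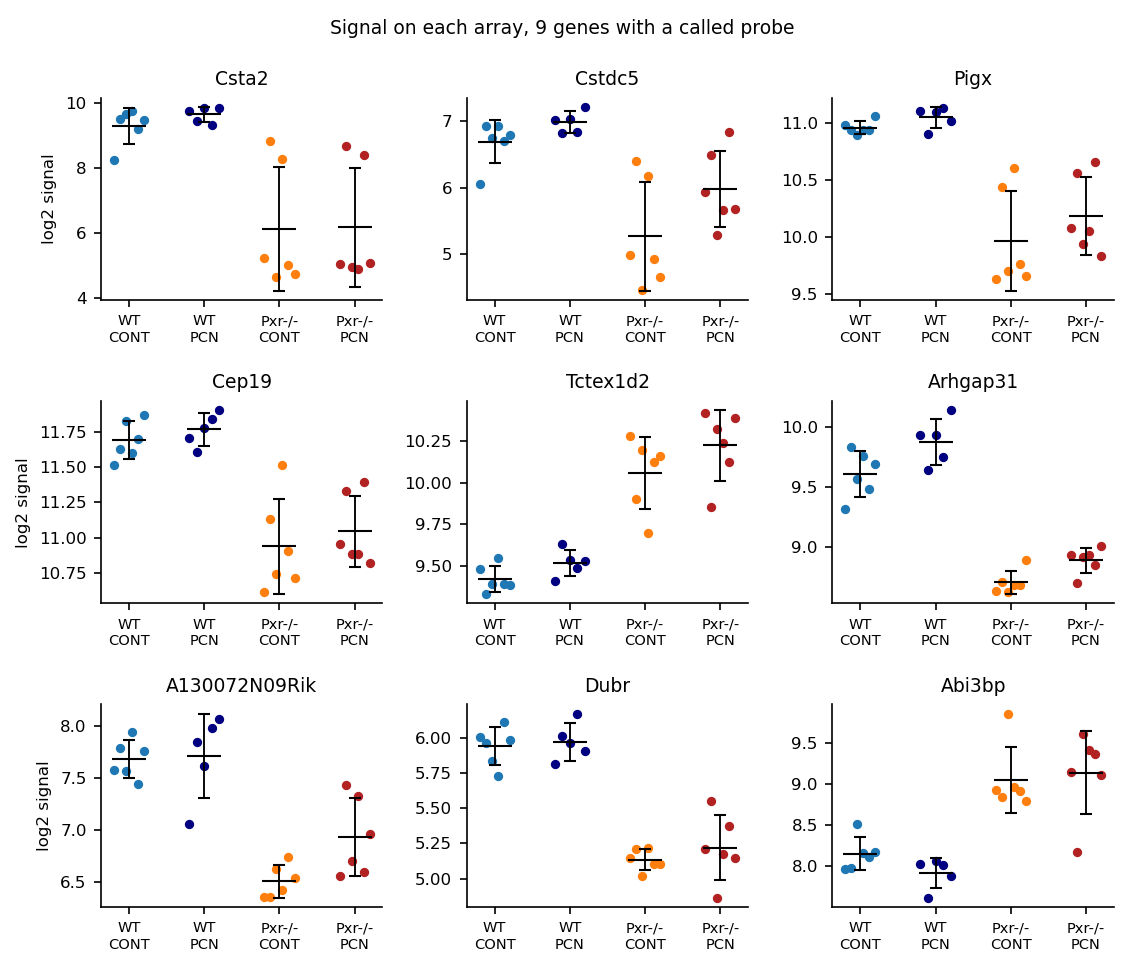
Each panel shows the log2 signal of 1 probe of a gene on all 23 arrays, by group (WT CONT, WT PCN, Pxr-/- CONT, Pxr-/- PCN). Points are arrays, and black marks are the group mean with its SD. Arhgap31, Pigx, Cep19, Tctex1d2 and Dubr do not overlap between genotypes, whereas 4 of the 12 Pxr-/- arrays of Csta2 lie at 8.30 to 8.83 with the WT arrays.

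The 4 *Pxr*-/- arrays with *Csta2* in the WT range were CONT replicates 2 and 4 and PCN replicates 2 and 5. The same 4 were the 4 highest *Pxr*-/- arrays at both *Pigx* probes, *Cep19*, *Cstdc5* and the called probes of *Senp5* and *Pak2*. Leaving out *Csta2*, whose values picked the 4 arrays, that is 6 of the 8 called probes before *Nr1i2* and 0 of the 13 after it. Probes with only 3 of the 4 arrays at one end, as at *Tctex1d2* and *Zdhhc19*, were not counted on either side. The 6 are not separate observations. Those of *Senp5*, *Pak2*, *Pigx* and *Cep19* lie together from -6.27 to -6.14 Mb. The *Cstdc5* probe shares a run of 25 bases with that of *Csta2* and may read the same transcripts. Over the other 585 members these arrays were the 4 highest or the 4 lowest of the 12 at 11 probes (1.88%), and over all tested probes, *Csta2* included, at 0.628%. Of the 4, 3 were in wash batch 1 and 1 in batch 2, and their *Nr1i2* signal was 11.76 to 12.27, beside 11.38 to 11.78 on the other 8. All 4 carry the label of the knockout. They are given here as single arrays, and no test or mean was made from that split, which the labels do not give.

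**Figure D4:**
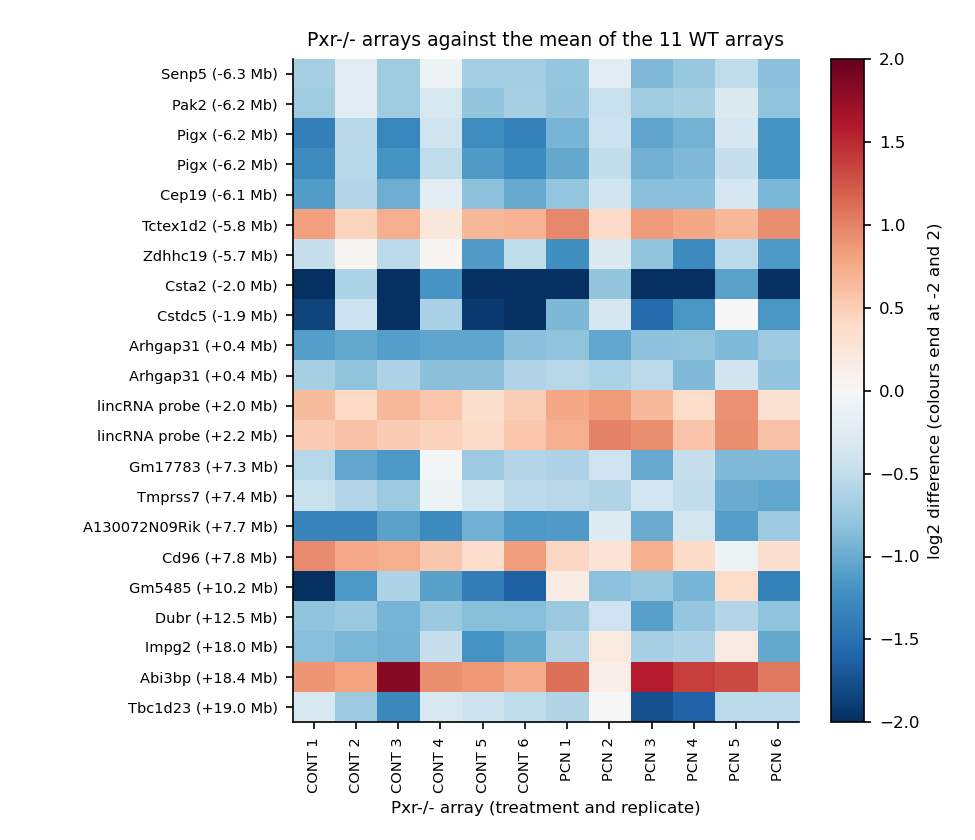
Rows are the 22 called probes in order of distance from Nr1i2, columns the 12 Pxr-/- arrays, and colour the log2 difference of that array from the mean of the 11 WT arrays (blue lower, red higher, colours ending at -2 and 2). CONT replicates 2 and 4 and PCN replicates 2 and 5 are paler in the rows from Senp5 to Cep19 and in those of Csta2 and Cstdc5, and in none of the 13 rows after Nr1i2 are they the 4 highest or the 4 lowest.

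After *Nr1i2* the called probes were spread from 0.35 to 18.96 Mb. Near 2 Mb, 9 probes of long intergenic RNAs lay between 1.74 and 2.34 Mb, a stretch picked after its values were seen. Their averaged differences ranged from -0.02 to 0.65. The second intergenic probe shown above ranged from 6.09 to 6.605 (median 6.31) on WT and from 6.71 to 7.33 (median 6.91) on *Pxr*-/- arrays, without overlap. It was called averaged (0.65, SE 0.06, limma adjusted p = 6.7e-07) and with PCN. The first ranged from 5.71 to 6.08 on WT and from 6.20 to 6.80 on *Pxr*-/- arrays and was called with PCN (0.65, SE 0.10, limma adjusted p = 0.000622). A neighbouring probe was above background on 0 of 11 WT and 9 of 12 *Pxr*-/- arrays, and another on 3 and 11, so both passed the filter on dim probes only through the *Pxr*-/- arrays.

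From 6.9 to 8.2 Mb lower and higher genes stood side by side. A130072N09Rik, a cDNA clone name, ranged from 7.05 to 8.06 on WT and from 6.35 to 7.44 on *Pxr*-/- arrays, with -1.17 (SE 0.16, limma adjusted p = 0.000362) without and -0.80 (SE 0.16, limma adjusted p = 0.0182) with PCN. Of the 2 probes of *Gm17783*, 1 was called (averaged difference -0.70, SE 0.10), and the other had -0.40 (SE 0.17, limma adjusted p = 0.386). *Tmprss7*, a membrane serine protease, had -0.56 (SE 0.08), and was called with PCN alone (-0.60). Of the 3 probes of *Slc35a5*, a nucleotide sugar transporter, 2 passed by adjusted p and not by fold (-0.55 and -0.40).

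*Cd96*, a receptor of T and NK cells, was called higher without PCN at 1 of its 3 probes. That probe read 5.93 to 6.44 on WT CONT arrays and 6.57 to 7.16 on *Pxr*-/- CONT arrays, a difference of 0.69 (SE 0.11, limma adjusted p = 0.00491), and 0.34 (SE 0.12) with PCN. The other 2 probes had averaged differences of 0.11 and 0.00. The summed signal of 6 T and NK cell markers was also higher in *Pxr*-/- CONT arrays (33595 to 47545) than in WT CONT arrays (18627 to 26259), and 2 of the 6 were called averaged, but 0 in the comparison without PCN alone or with PCN alone. It was 14968 to 29998 in WT PCN and 11484 to 41285 in *Pxr*-/- PCN. In such a sum of linear signals the brightest markers weigh most. The median averaged difference of the marker list was 0.55, and single markers are not given here. The part of these cells in the *Cd96* result was not tested.

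*Dubr* separated the genotypes at 12.5 Mb at both probes. The first probe shown above read 6.00, 5.97, 5.83, 5.73, 6.11 and 5.99 on WT CONT and 5.81, 6.01, 5.96, 6.17 and 5.90 on WT PCN arrays. It read 5.15, 5.21, 5.02, 5.22, 5.11 and 5.10 on *Pxr*-/- CONT and 5.21, 5.55, 4.86, 5.18, 5.37 and 5.15 on *Pxr*-/- PCN arrays. It was above background on 11 of 11 WT arrays and on 1 of 12 *Pxr*-/- arrays, so it passed the filter on dim probes only through the WT arrays. Its level in *Pxr*-/- CONT is only a bound, at least 1.69-fold lower than in WT CONT under the main processing. The bound itself was not tested, and the limma adjusted p of 3.02e-05 belongs to the fitted difference without PCN. That bound compares the WT CONT mean with the mean, over *Pxr*-/- CONT arrays, of the higher of the probe's own signal and the array's lowest signal well above background. The second probe, above background, had an averaged difference of -0.54 (SE 0.07, limma adjusted p = 0.00015) and no overlap between genotypes.

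Further out, probes of the same gene did not always agree. At 18.4 Mb 1 of the 5 probes of *Abi3bp*, an extracellular matrix protein gene, was called (1.07, SE 0.14, limma adjusted p = 9.58e-05), with overlapping ranges. It was 0.90 without and 1.23 with PCN, and the other 4 had averaged differences of 0.09 to 0.31. The highest of these also passed by adjusted p (limma adjusted p = 0.0405), under the fold threshold. At 19.0 Mb *Tbc1d23*, a gene of endosome-to-Golgi traffic, had 1 probe lower (-0.73, SE 0.16), 1 higher under the fold threshold (0.45, SE 0.09) and 1 without a difference past the test (0.02, SE 0.06). *Impg2*, a matrix proteoglycan gene of the retina, had -0.69 (SE 0.14) at its only probe, and *Gm5485* at 10.2 Mb had -0.97 (SE 0.19), both called averaged alone and both with overlapping ranges. Of 130 genes with several probes, 15 had at least 1 with an adjusted p of at most 0.05 averaged. In 6 of these all probes did, in 9 only some, and *Tbc1d23* had probes in both directions. The same counts were not made over all tested genes, and a gene with more probes has more chances to pass.

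Smaller differences, called by adjusted p but not by fold, were found at 31 probes of 28 genes, 14 higher and 17 lower, with sizes of 0.24 to 0.58. By adjusted p at any fold 8.53% of members passed, against 1.21% of all tested probes. Those also past the fold were 3.24%, against 0.396%. They include both probes of *Cd47*, a surface protein that restrains phagocytosis, at 11.7 Mb (0.35 and 0.39), *Ift57*, of intraflagellar transport, at 11.5 Mb (0.43) and both probes of *Hspbap1* at -2.4 Mb (-0.34 and -0.35). *Ccdc50*, at -10.8 Mb, had a difference of 0.30 at the 1 of its 3 probes that passed, and the lowest of the 3 was -0.10.

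Genotype ranges that did not overlap at all were likewise more common among members. Without PCN, 30 members (5.12%, against 0.984% of all tested) had the 6 *Pxr*-/- arrays all above or all below the 6 WT arrays, and with PCN 28 (4.78%, against 0.998%). Over all 12 *Pxr*-/- and 11 WT arrays, 10 members of 7 genes did not overlap (1.71%, against 0.0452% of all tested), out of 17 probes on the whole array. Those are the probes of *Arhgap31* (2), *Pigx* (2), *Dubr* (2), *Cep19*, *Tctex1d2* and the 2 intergenic RNAs. The first *Dubr* probe among them passed the filter on dim probes only through the WT arrays.

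The genotype comparisons without and with PCN share no arrays. Over the 586 members, which include neighbouring probes of the same genes, 62.8% had the same sign, with a Pearson correlation of 0.72 and a Spearman correlation of 0.46. Over the 36332 probes of other chromosomes the values were 54.9%, 0.39 and 0.17. No member was called in the interaction of genotype and PCN by limma (lowest adjusted p = 0.671), against 0.0771% of all tested probes, and 28 members had an unadjusted p under 0.05 (4.78%, beside 4.49% of all tested).

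**Figure D5:**
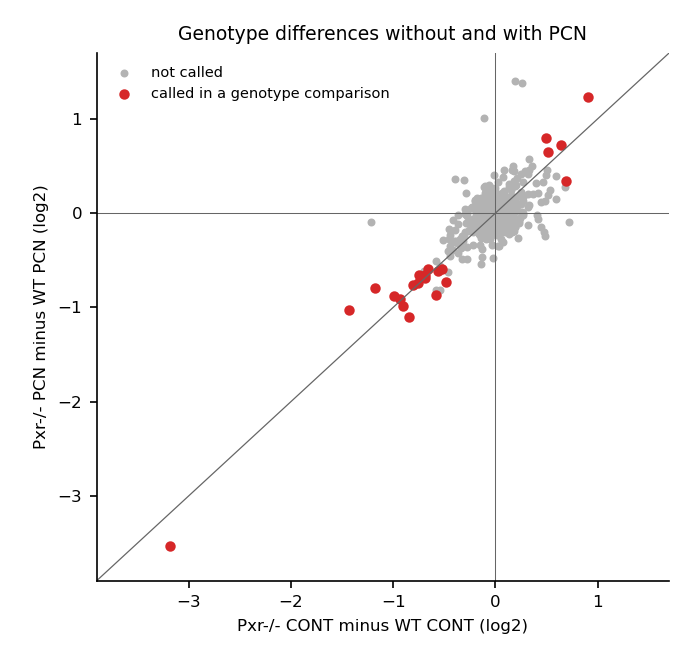
Each point is 1 of the 586 probes, with the difference Pxr-/- minus WT (log2) without PCN on the horizontal axis and with PCN on the vertical axis. Red points are the 22 probes called in a genotype comparison, and the diagonal marks equal differences. Each of the 22 red points is either below 0 on both axes or above 0 on both, which their choice by these same comparisons favours.

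PCN itself moved few members, and at about the rate of the whole array. In WT mice 3 were called (0.512%, against 0.689% of all tested) and in *Pxr*-/- mice 8 (1.37%, against 0.939%). *Kng1*, a kininogen gene, was called lower in both at 1 of its 2 probes. That probe fell by 0.94 (SE 0.21, limma adjusted p = 0.0266) in WT and by 0.84 (SE 0.20, limma adjusted p = 0.0248) in *Pxr*-/- mice. In WT mice the GPI mannosyltransferase gene *Pigz* fell (-0.59) and *Nrros* rose (0.66). In *Pxr*-/- mice the olfactory receptor gene *Olfr165* (1.29) and the stefin genes *Cstdc4* (1.06) and *Stfa2l1* (1.04) rose. *Fstl1*, a secreted glycoprotein gene 0.41 Mb from *Nr1i2*, was called higher at 1 of its 3 probes (0.68). *Apod*, apolipoprotein D, was called higher at 1 of its 2 probes (0.67), and *Muc13*, a transmembrane mucin gene, fell at 2 probes (-0.68 and -0.59). None of these genes was called between genotypes, except *Olfr165* with slide as a fixed block (-0.82, limma adjusted p = 0.0278).

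The counts by role stand beside 3.24% of all members and 0.396% of all tested probes called averaged, and with 7 to 31 probes a role no share is compared with these. Of 12 measured genes of co-stimulation and lymphocyte receptors (22 probes), none was called averaged and 3 probes passed by adjusted p alone. Their median averaged difference was 0.06, beside 0.01 for all tested probes. The *Cd96* probe was called only without PCN, where 1.88% of all members and 0.141% of all tested probes were called. Of 13 genes of the epithelial surface and its junctions (26 probes) none was called between genotypes, 1 passed by adjusted p alone, and the median was -0.04. *Muc13* had 0.02 (SE 0.10) and *Muc4*, another transmembrane mucin gene, -0.66 (SE 0.17, limma adjusted p = 0.065, and 0.0483 in the deposited table). Of the 7 stefin A genes *Csta2* and *Cstdc5* were called averaged, with a median over the 7 of -0.02.

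None of the 12 probes of 5 ADP-ribosyltransferase and interferon genes was called between genotypes. *Parp14* had 0.37 (SE 0.13, limma adjusted p = 0.224), and the median of the group was 0.15. None of the 31 probes of 13 genes of metabolism and transport was called either, 3 passed by adjusted p alone, those of *Slc35a5* among them, and the median was -0.07. The 15 probes of 10 plasma protein and hormone genes had none (median -0.03). Among the 21 probes of 9 genes of transcription and signalling, 1 was called averaged, that of *Pak2*, and the median was -0.03.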

How the data were processed

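The members, gene lists and tests were chosen with earlier results of these data known. Cy3-labelled cRNA from 150 ng of total RNA was hybridised by the authors, and the scanner values are intensity (linear spot brightness) per the file headers (Agilent Feature Extraction 10.10.1.1, named in the submitters' processing notes). The deposited table, made by the authors, has values on a log2 scale, which their methods describe as filtered on the median signal, corrected for wash batch and normalized with CrossNorm. It chose the members and served as an alternative.

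Here the median signal was used. Control spots and outlier spots were left out, spots of a probe averaged on the log2 scale, and arrays quantile normalized. A probe was tested when 1 or more groups had it flagged well above background by the software on 50% or more of their arrays. Of 56605 probes 37591 were tested, and 272 further probes of the chromosome stretch were not in the deposited table (5 tested, 0 called). limma 3.58.1 (R 4.3.3) was fitted to all 23 arrays with group and wash batch, 2-sided, with 6 contrasts. Wash batch 1 held 3, 2, 3 and 3 arrays of WT CONT, WT PCN, *Pxr*-/- CONT and *Pxr*-/- PCN, and batch 2 held 3 of each. The arrays lay on 8 slides scanned on 1 day. Each array is 1 mouse, per the labels.

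Genes were named by a rule: *Nr1i2*, every gene with a called member in a genotype contrast (full values for up to 15), the brightest probe of each gene within 1 Mb, up to 5 members called per PCN contrast and up to 4 genes per role list. *Slc35a5*, *Cd47*, *Ift57*, *Hspbap1* and *Ccdc50* at small differences, all 5 other stefin genes and all PCN calls in *Pxr*-/- mice were added after values were seen. Genes under the rule that were not called are for the most part given as ranges and counts, and the result of 1 gene is left out. Of the members 489 matched a symbol in a RefSeq gene table, 267 symbols in all. Whether a probe lies in an exon, intron or UTR was not analysed here. On data simulated for the averaged genotype contrast over 37557 probes, 99% of 100 probes changed by 1 on the log2 scale were recovered and 99% of 100 changed by 2, with 1 false call. The simulation gave each probe 1 spread and moved every *Pxr*-/- array by the same amount. It does not cover differences near the fold threshold, unequal spreads or the contrasts within 1 treatment. Alternatives were another signal and scaling, normexp background correction with offset 50, median centring, the deposited table, other filters, no wash batch, slide as a fixed or random block, a replicate block, no fold threshold, each array left out, each wash batch alone, and other distance bins.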

Additional observations from a re-analysis of the deposited data

Results flagged for a closer look

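Within groups, single arrays stood apart from the other arrays of their group at 6 of 128 groups of called members (4.69%) and at 159 of 2344 groups of all members (6.78%), where chance alone gives about 1 in 20. *Arhgap31* (probe at 0.35 Mb) was highest on *Pxr*-/- CONT replicate 6, at 8.89 beside 8.71 for the next. *Cstdc5* was lowest on WT CONT replicate 1, at 6.06 beside 6.71. *Abi3bp* was highest on *Pxr*-/- CONT replicate 3, at 9.86 beside 8.97, and lowest on *Pxr*-/- PCN replicate 2, at 8.17 beside 9.11. *Zdhhc19* was highest on WT PCN replicate 2, at 10.01 beside 9.76, and *Kng1* on WT CONT replicate 3, at 8.56 beside 7.97. The *Csta2* values, with 2 separate levels in each *Pxr*-/- group, are not single arrays apart and were not picked out this way.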

How the results depend on the processing

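The number of members called was 8 to 15 without PCN, 11 to 16 with PCN, 13 to 23 averaged, 2 to 4 for PCN in WT and 7 to 10 for PCN in *Pxr*-/- mice under the other scalings, filters and batch or slide terms, with the exceptions given below. The shares of all tested probes called under the same settings were 0.076% to 0.188%, 0.221% to 0.411%, 0.242% to 0.641%, 0.412% to 0.749% and 0.532% to 1.05%. With the processed signal scaled to its 75th percentile, 30 were called averaged (5.12%, against 0.527% of all tested). For PCN it was 5 in WT (0.853%, against 0.801%) and 14 in *Pxr*-/- mice (2.39%, against 1.4%). With slide as a fixed block, 21 were called without PCN (3.58%, against 0.684% of all tested) and 13 for PCN in *Pxr*-/- mice (2.22%, against 1.18%). Without the fold threshold, 19 were called without PCN, 23 with PCN, 50 averaged, 11 for PCN in WT and 27 for PCN in *Pxr*-/- mice. The matching shares of all tested probes were 0.215%, 0.622%, 1.21%, 1.29% and 3.57%. Within wash batch 1 alone, with fewer arrays, 0 were called without PCN, 3 with PCN, 6 averaged, 1 for PCN in WT and 0 for PCN in *Pxr*-/- mice. Within batch 2 these were 8, 7, 18, 0 and 5. The matching shares of all tested probes were 0.0106%, 0.205%, 0.223%, 0.128% and 0.0106% in batch 1. In batch 2 they were 0.0612%, 0.128%, 0.141%, 0.128% and 0.412%. All 19 probes called averaged kept their sign within each batch. No member was called in the interaction under any alternative.

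With each array left out in turn, 9 to 14 were called without PCN, 11 to 18 with PCN, 17 to 21 averaged, 0 to 5 for PCN in WT, 4 to 12 for PCN in *Pxr*-/- mice and 0 to 0 in the interaction. The PCN counts rested on single arrays: for WT, 0 without WT PCN replicate 2, 1 without WT CONT replicate 2 or 3 or WT PCN replicate 3 or 5, and 5 without WT PCN replicate 1. For *Pxr*-/- mice it was 4 without *Pxr*-/- PCN replicate 1 and 5 without replicate 5. With distance bins ending at 1 Mb, 2 of the nearest 40 probes were called (5%), beside 5.33% within 2 Mb, and the low share from 2 to 5 Mb was not seen.

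No named probe changed sign where called. *Senp5* missed the fold threshold under 15 and *Pak2* under 6 of the alternatives other than single batches, with differences of -0.58 to -0.55 and -0.58 to -0.48. With normexp, *Dubr* had -0.45, *Gm17783* -0.51, *Impg2* -0.53 and the second intergenic probe 0.49, all under the fold threshold. *Tbc1d23* lost its adjusted p with the processed signal (0.0538) and without WT PCN replicate 4 (0.0582), and *Zdhhc19* its fold without *Pxr*-/- CONT replicate 5 (-0.56). Outside single batches, calls averaged were gained by the first intergenic probe under 11 alternatives, *Tmprss7* under 4, *Muc4* under 2 (the deposited table and without WT PCN replicate 2), *Cd96* under 1 (the processed signal, 0.73) and *Olfr165* under 1 (slide as a fixed block, -0.82). *Csta2* without PCN was called with slide as a fixed block and without *Pxr*-/- CONT replicate 2 or 4 or *Pxr*-/- PCN replicate 5. The cause was not tested. Replicate numbers did not pair the arrays (33 same-numbered pairs, correlation of deviations -0.205 to 0.434, 6 over 0.1), and with a replicate block 12 were called without PCN, 15 with PCN and 19 averaged, 0 in the interaction, 2 for PCN in WT and 8 for PCN in *Pxr*-/- mice. Probes near background limit what the depth of signal can show.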
